A study of Rattus norvegicus with 15 samples.

Results

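Small noncoding RNA genes were taken as the genes annotated as snRNA, snoRNA, scaRNA, miRNA, misc_RNA, rRNA or ribozyme and lying outside the X and Y chromosomes in any of 3 tables of rat adrenal RNA-seq. The rule found 183 genes of 8621 listed: 73 snoRNA, 65 miRNA, 20 snRNA, 12 misc_RNA, 10 rRNA and 3 scaRNA genes and 0 ribozymes. The tables compared medullary tissue of 5 wildtype (WT) rats, 5 MENX rats with a hyperplastic medulla (HYP) and 5 MENX rats with pheochromocytoma (PCC), with each group set against each of the others, so every comparison shares samples with the others. Strain was given as Sprague-Dawley for all 15 animals. WT and PCC rats were 7 to 9.5 months old and HYP rats 4 to 5 months old, and age and stage cannot be told apart in the comparisons with HYP. MENX rats are homozygous for a spontaneous germline frameshift of Cdkn1b, which encodes the cell cycle inhibitor p27, so the mutation is in every cell, and the PCC group mixed early and advanced tumors. The medulla was freed of cortex by macrodissection, each sample was 1 animal, and p-values measure the spread between these animals.

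MicroRNAs are cut from hairpins in longer transcripts, first by the Drosha and Dgcr8 complex in the nucleus, and then guide silencing complexes to messenger RNAs through the seed at their 5′ end. Most mammalian snoRNAs are released from introns of host genes, many of which encode ribosomal or translation proteins. Box C/D snoRNAs guide the methylation of ribosomal RNA and box H/ACA snoRNAs its pseudouridylation, whereas scaRNAs guide the modification of spliceosomal RNAs in Cajal bodies. The U snRNAs form the spliceosome, 7SK RNA holds the elongation factor P-TEFb inactive together with Hexim proteins, and 5S and 5.8S rRNA belong to the large ribosomal subunit. Mature forms of these RNAs mostly have no poly(A) tail.

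Of the 65 miRNA genes, 26 matched RefSeq by name, with 44 mature sequences of the build GRCr8. The sequences below belong to named miRNA genes described next, with the seed (bases 2 to 8) in capitals. Those of Mir23b, Mir27b, Mir3074, Mir218-2, Mir3064, Mir22 and Mir2985 are shown because these genes were called, those of miR-344a-5p (matched to Mir344a-2) and miR-344g for the miR-344 family, whose genes with a matched sequence were not tested, and those of Mir410 and Mir496, which were not called, for their shared seed. Among the 44 sequences, the seed shared by miR-410-5p and miR-496-5p was the only one that occurred more than once.
rno-miR-23b-3p: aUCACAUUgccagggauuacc
rno-miR-27b-3p: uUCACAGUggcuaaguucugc
rno-miR-3074: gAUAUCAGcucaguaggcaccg
rno-miR-218a-5p: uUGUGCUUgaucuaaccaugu
rno-miR-344a-5p: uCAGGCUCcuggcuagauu
rno-miR-344g: aGUCAGGCuccuggcaggaguc
rno-miR-3064-3p: uUUGCCACacugcaacaccuuaca
rno-miR-22-3p: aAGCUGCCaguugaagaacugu
rno-miR-2985: uGUUAUAGuaucccaccuaccc
rno-miR-410-5p: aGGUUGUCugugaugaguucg
rno-miR-496-5p: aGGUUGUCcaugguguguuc

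Counting on such short genes had limits. Member genes were 49 to 338 bases long (median 114, against 2257 over all listed genes) and 156 of 183 were shorter than 150 bases, while the libraries were made from poly(A)-selected RNA with fragments of preferentially 150 to 200 bp and a kit that does not mark strand. A count on a member is therefore a count of fragments that touched the gene, which can come from a longer transcript, and it is not a level of the mature small RNA. Members took 0.0317% to 0.0888% of the 16315018 to 23831269 reads counted on genes per sample. The mean count was under 10 in 68 of the 160 members listed for PCC vs. WT, in 25 of 84 for HYP vs. WT and in 12 of 34 for PCC vs. HYP. Copies of the same family share sequence, so the split of reads among them is uncertain.

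Cell type markers moved with the groups. Sums were taken over markers with values in all 15 samples, which the authors had called in at least 2 comparisons. Differences between groups were thus partly built in by this choice. Such markers were 7 of 12 cortex, 6 of 9 chromaffin and 3 of 6 endothelial names. For sustentacular and Schwann cells they were 4 of 6, and for proliferation 6 of 6. The summed level of 7 adrenal cortex markers was 18238 to 41349 CPM (counts scaled to a common library size) in WT, 9239 to 24079 in HYP and 663 to 11035 in PCC, so cortical RNA remained in the dissected medulla. The sum of 6 chromaffin markers ran in the opposite order, with 1657 to 7718 CPM in WT, 8275 to 12621 in HYP and 14098 to 27617 in PCC. Endothelial markers (3 genes) summed to 336 to 446 CPM in WT, 197 to 309 in HYP and 93.1 to 221 in PCC, sustentacular and Schwann markers (4 genes) to 40.4 to 84.9, 43.9 to 74.9 and 9.41 to 28.3, and proliferation markers (6 genes) to 12.4 to 19.1, 43.9 to 62.0 and 74.4 to 190. Single sustentacular and Schwann markers differed in direction. Of 4 tested in PCC vs. WT, 2 rose and 2 fell, and of 3 in HYP vs. WT, 2 rose and 1 fell. Of the macrophage and leukocyte list, 1 gene, Cd163, had values in all samples, at 8.66 to 22.3, 32.1 to 43.1 and 5.96 to 52.8 CPM, and of the erythroid list 0 had. WT replicate 5 was lowest for the chromaffin sum (1657, against 4728 to 7718 in the other WT samples). In WT replicates 1 and 2, the cortex sum was 18238 and 19707, against 31099 to 41349 in WT replicates 3 to 5. In bulk tissue, fewer cells of a type and less RNA per cell cannot be told apart, and the part of cell composition in the values below was not tested.

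In PCC vs. WT, 160 members were listed and 84 passed the filter on low counts. Of these, 21 rose and 43 fell (edgeR's quasi-likelihood test, Benjamini-Hochberg adjusted p under 0.05), which is 76.2% called against 84.9% of all 7001 genes tested. For single directions, 25.0% of members rose (47.2% of all genes) and 51.2% fell (37.8% of all genes). The median log2 fold change was -1.04 over the members and 0.45 over all genes. The 5 samples of each group did not overlap in 17 members that were higher (all genes 37.3%) and 22 that were lower (27.4%). Every listed gene had already been called by the authors on the same samples, so a call is not independent of being listed. The split depended on the scaling: 22 rose and 22 fell with library totals, 22 and 15 with the total of the listed counts, 20 and 49 with the authors' size factors, and 20 and 62 with DESeq2, while 62 of 84 were fitted lower under each of these. The split over all genes moved too. There, 3520 rose and 1592 fell with library totals and 3545 and 1100 with the total of the listed counts. With the authors' size factors 3048 rose and 2913 fell, and with DESeq2 3227 and 3440.

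HYP vs. WT gave 84 listed and 51 tested members, of which 10 rose and 28 fell (74.5% called, against 71.6% of all 4108 genes). Higher calls took 19.6% of members (39% of all genes) and lower calls 54.9% (32.6% of all genes), and the median log2 fold change was -1.09, against -0.37 over all genes. Groups did not overlap in 9 members that were higher (all genes 35.7%) and 7 that were lower (19.1%). With library totals 11 rose and 10 fell, and with the total of the listed counts 11 rose and 5 fell. Over all genes, 1809 rose and 577 fell with library totals, and 1966 and 235 with the total of the listed counts. The count of 38 member calls dropped to 20 without WT replicate 1, to 25 without WT replicate 4, HYP replicate 2 or HYP replicate 4, and to 24 without HYP replicate 5. Calls over all genes dropped too, from 1603 higher and 1339 lower to 1363 and 924 without WT replicate 1. They were 1197 and 1017 without WT replicate 4, and 1205 and 918 without HYP replicate 2. Without HYP replicate 4 they were 1349 and 974, and without HYP replicate 5 1182 and 850.

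Few members were listed for PCC vs. HYP (34, with 19 tested): 4 rose and 2 fell, or 31.6% called against 44.8% of all 3148 genes (20.3% higher and 24.5% lower). The median log2 fold change of the members was 0.97 and that of all genes 0.40, and groups did not overlap in 4 members that were higher (all genes 31.6%) and 2 that were lower (22.7%). Here 7 rose and 6 fell with DESeq2, 6 and 1 with the authors' size factors, and 7 and 1 with library totals. Over all genes, 812 rose and 1399 fell with DESeq2, 891 and 562 with the authors' size factors, and 1026 and 426 with library totals. Single libraries moved the count of 6 called members to 10 without PCC replicate 1, 12 without PCC replicate 5, 3 without HYP replicate 4 and 1 without HYP replicate 3. Calls over all genes moved as well, from 640 higher and 770 lower to 698 and 816 without PCC replicate 1. They were 841 and 902 without PCC replicate 5, 232 and 177 without HYP replicate 4, and 258 and 185 without HYP replicate 3.

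The split by biotype was not tested between biotypes and is given as counts. In PCC vs. WT, miRNA genes were mixed, with 11 of 29 tested higher and 12 lower, whereas 39 of 41 snoRNA genes were fitted lower, 27 of them called, and 2 were called higher. In HYP vs. WT, all 22 tested snoRNA genes were fitted lower (14 called, 0 higher), and 6 of 20 miRNA genes rose and 10 fell. Over all genes, 3448 of 7001 were fitted lower in PCC vs. WT and 2141 of 4108 in HYP vs. WT. Lower calls took 65.9% and 63.6% of snoRNA genes (37.8% and 32.6% of all genes). In either direction, 70.7% and 63.6% of snoRNA genes and 79.3% and 80.0% of miRNA genes were called (84.9% and 71.6% of all genes). The few tested snRNA genes (3 of 4 higher, 1 lower in PCC vs. WT) and rRNA genes (2 of 3 higher, 0 lower) were too few to compare with the snoRNA genes. With library totals, 39 of 41 and 22 of 22 snoRNA genes were still fitted lower, but 12 and 5 were called. Lower calls over all genes also dropped with library totals, from 2644 to 1592 of 7001 and from 1339 to 577 of 4108.

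**Figure D1:**
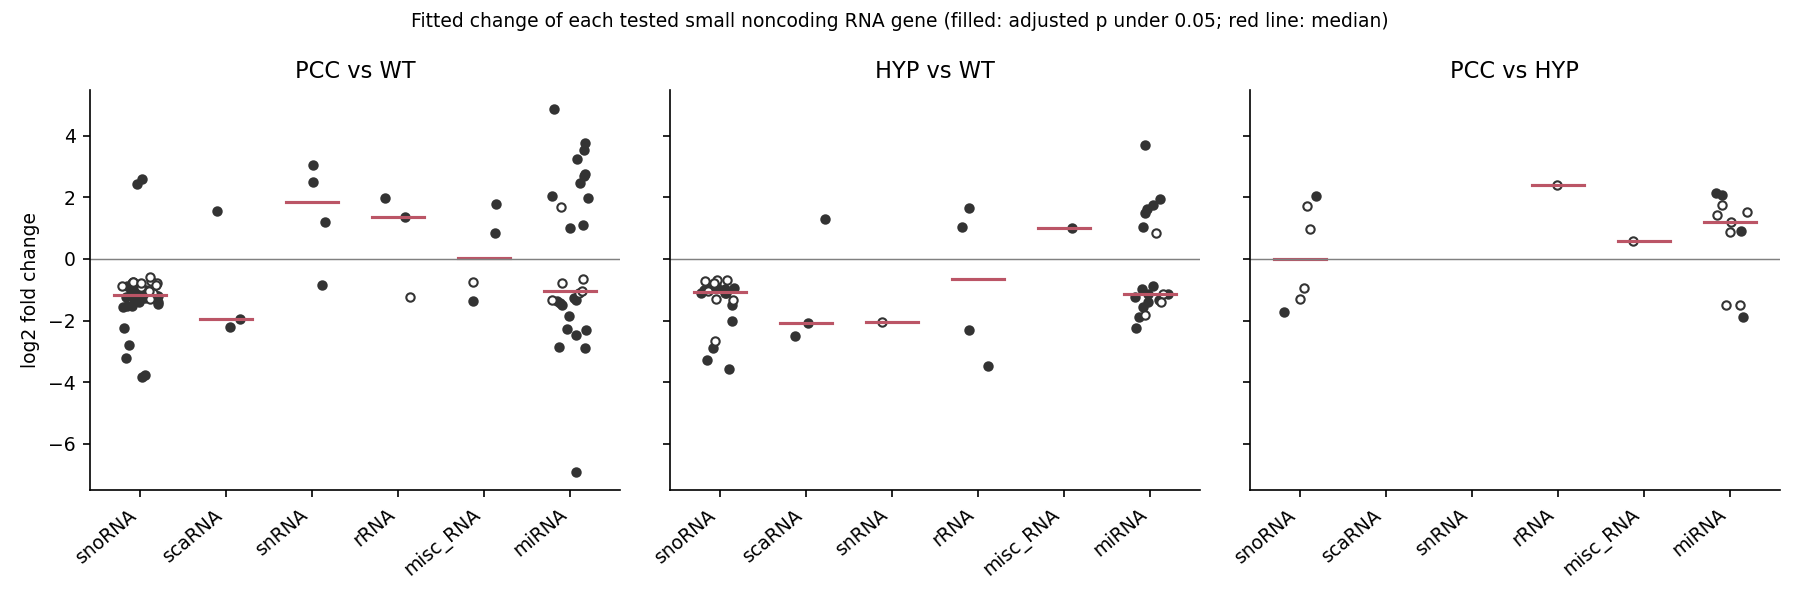
Log2 fold changes of the tested small noncoding RNA genes in each comparison, by biotype, with 1 point per gene, filled where called, and a red line at the median. The snoRNA points lie below 0 in 39 of 41 genes in PCC vs. WT and in 22 of 22 in HYP vs. WT, while miRNA genes spread to both sides. Of all genes tested, 3448 of 7001 and 2141 of 4108 were fitted lower.

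The largest rise of a member in PCC vs. WT was in 1 cluster on chromosome 17 (build Rn06), where Mir23b (chr17:823222-823318, plus strand), Mir27b (chr17:823461-823557, plus) and Mir3074 (chr17:823940-824056, minus) lie within 1 kb. In RefSeq's GRCr8 all 3 lie in Aopep, an aminopeptidase gene, and Mir3074 also overlaps parts of Mir24-1 and Fancc. Counts of Mir23b were 2, 3, 1, 0 and 0 in WT replicates 1 to 5, then 5, 5, 4, 5 and 20 in HYP and 25, 53, 20, 80 and 53 in PCC. All PCC and all HYP samples stood above all WT samples, and HYP replicate 5 reached the lowest PCC level. Its level was 0.0600 ± 0.0649 CPM (SD, n = 5) in WT, 0.428 ± 0.320 in HYP and 2.14 ± 1.16 in PCC. The log2 fold change was 4.88 ± 0.69 (SE) in PCC vs. WT (edgeR adjusted p = 0.000496) and 2.13 ± 0.51 in PCC vs. HYP (edgeR adjusted p = 0.0286), and the second call was lost in 5 of 10 fits that left out 1 library.

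Mir27b followed the same order. Its counts were 4, 7, 0, 5 and 4 in WT, 12, 4, 13, 13 and 17 in HYP and 41, 81, 42, 105 and 77 in PCC. No PCC sample overlapped with WT or HYP, whereas HYP replicate 2 lay within the WT range. The gene rose by a log2 fold change of 3.78 ± 0.58 in PCC vs. WT (edgeR adjusted p = 0.000765) and 2.07 ± 0.41 in PCC vs. HYP (edgeR adjusted p = 0.0146).

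Mir3074, on the other strand, had the highest counts of the 3 genes, at 94, 71, 38, 43 and 8 in WT, 165, 133, 127, 129 and 200 in HYP and 290, 381, 320, 427 and 523 in PCC. The 3 groups did not overlap in any pair. It was the only member called in all 3 comparisons, with log2 fold changes of 2.68 ± 0.45 in PCC vs. WT (edgeR adjusted p = 0.0012), 1.62 ± 0.39 in HYP vs. WT (edgeR adjusted p = 0.0155) and 0.90 ± 0.21 in PCC vs. HYP (edgeR adjusted p = 0.0246). The last of these was lost in 4 of 10 fits without 1 library. Since the kit did not mark strand, reads of Mir3074 and of Mir24-1, which overlap in part on GRCr8, cannot be told apart.

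Mir218-2 (chr10:20428661-20428770) lies in Slit3, which encodes an axon guidance ligand. WT counts were 8, 1, 1, 0 and 0, HYP counts 19, 23, 30, 21 and 44, and PCC counts 21, 56, 24, 21 and 22. All HYP and PCC samples were above all WT samples, and the HYP and PCC ranges overlapped. It rose in HYP vs. WT (log2 fold change 3.71 ± 0.62, edgeR adjusted p = 0.00266) and in PCC vs. WT (3.55 ± 0.77, edgeR adjusted p = 0.00473), and Slit3 changed by 1.93 and 2.07 on the same scale.

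On chromosome 1, 4 genes of the miR-344 family were spread between 122309549 and 122506657 on the minus strand. Counts of rno-mir-344a-1 were 3, 4, 6, 6 and 0 in WT, 10, 8, 10, 11 and 19 in HYP and 46, 24, 80, 60 and 18 in PCC. WT stood below both other groups, and PCC replicate 5 lay within the HYP range. The gene rose in PCC vs. WT (log2 fold change 3.26 ± 0.63, edgeR adjusted p = 0.00247), and PCC vs. HYP missed the threshold (1.53 ± 0.44, edgeR adjusted p = 0.0534, DESeq2 adjusted p = 0.0296). The other 3 genes did not pass the filter on low counts. Mir344a-2 had 0 to 8 counts in WT and 3 to 21 in PCC, Mir344g had 0 or 1 in WT and 0 to 25 in PCC, and Mir344i had 0 or 1 in WT and 1 to 14 in PCC.

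**Figure D2:**
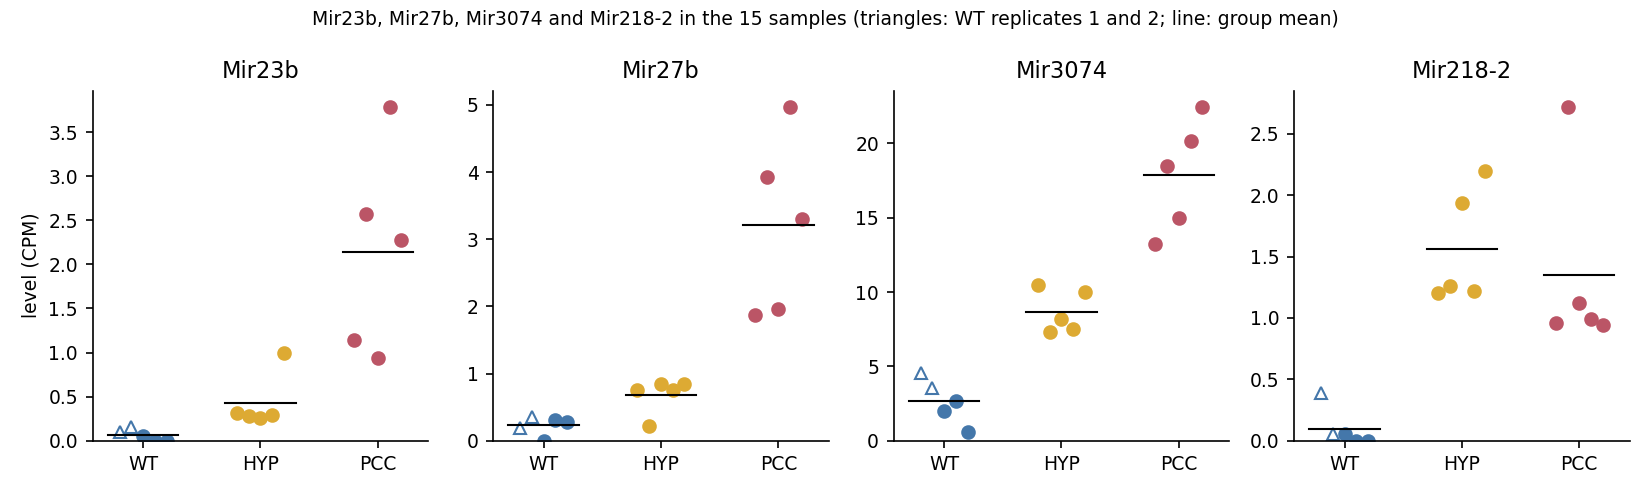
Levels in CPM (vertical axis) of Mir23b, Mir27b, Mir3074 and Mir218-2 in each of the 15 samples by group, with a line at the group mean and triangles for WT replicates 1 and 2. Mir3074 separates the 3 groups in full, and Mir23b and Mir27b are higher in all 5 PCC samples than in all 5 WT samples.

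Mir3064 (chr10:94982051-94982117) and the clone-named miRNA gene AABR07030590.1 (chr10:94982505-94982605), both on the minus strand, were among the members with the highest counts, and GRCr8 places Mir3064 in Ddx5, an RNA helicase gene that also acts in microRNA processing. Mir3064 had 556, 490, 444, 506 and 935 counts in WT, 1663, 1736, 1158, 769 and 1084 in HYP and 1601, 2435, 1471, 1293 and 1038 in PCC. WT replicate 5 overlapped with the other groups and the other 4 WT samples did not. The log2 fold change was 1.10 ± 0.32 in PCC vs. WT (edgeR adjusted p = 0.0212, lost in 4 of 10 fits without 1 library) and 1.05 ± 0.32 in HYP vs. WT (edgeR adjusted p = 0.0449, lost in 8 of 10). AABR07030590.1 rose by 0.99 ± 0.26 in PCC vs. WT (edgeR adjusted p = 0.0123).

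Mir22, the gene of a microRNA found in many tissues, fell in both comparisons with WT. Its counts were 77, 109, 107, 127 and 42 in WT, 34, 29, 46, 39 and 61 in HYP and 67, 24, 40, 29 and 72 in PCC. WT replicate 5 lay within the range of the other groups and the other 4 WT samples above it. The log2 fold change was -1.32 ± 0.38 in PCC vs. WT (edgeR adjusted p = 0.0197) and -1.15 ± 0.30 in HYP vs. WT (edgeR adjusted p = 0.0204), and both calls were lost without WT replicate 4 or with library totals. Its neighbour Mir6326, too low to be tested, had 2 to 28 counts in WT, 1 to 7 in HYP and 0 to 8 in PCC. Mir3561 also fell in PCC vs. WT (-1.36 ± 0.36, edgeR adjusted p = 0.0134, 0.0504 with library totals).

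Mir2985, in the glutamate receptor gene Gria2 on GRCr8, was listed only against WT at the HYP stage, with 29, 38, 28, 20 and 3 counts in WT and 60, 107, 62, 37 and 58 in HYP. The groups did not overlap after scaling to depth, and it rose by 1.5 ± 0.42 on the log2 scale (edgeR adjusted p = 0.0296), a call lost in 4 of 10 fits without 1 library. Mir186 (0.84 ± 0.32 in HYP vs. WT, edgeR adjusted p = 0.105, and 0.0366 with library totals) and Mir370 (-1.33 ± 0.48 in PCC vs. WT, edgeR adjusted p = 0.0543, DESeq2 adjusted p = 0.0279) missed the threshold.

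A second cluster, on chromosome 6, holds Mir496, Mir377, Mir3578 and Mir410 in 1 lncRNA gene of GRCr8, within the imprinted Dlk1-Meg3 region. Mir410 had 47, 47, 26, 46 and 59 counts in HYP and 68, 108, 90, 209 and 87 in PCC, and the groups did not overlap. The difference missed the threshold (log2 fold change 0.87 ± 0.33, edgeR adjusted p = 0.141), as did that of Mir377 (1.19 ± 0.40, edgeR adjusted p = 0.0931). Mir496, whose 5p seed equals that of miR-410-5p above, had 0 or 1 counts in HYP and 1 to 14 in PCC, and Mir3578 had 0 to 4 in WT and 3 to 32 in PCC, both too low to be tested.

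The remaining miRNA genes with a mature sequence were also too low for a test, and only their counts are given. Mir143, known from smooth muscle, had 1 to 4 counts in WT and 7 to 23 in PCC. Mir93, a gene within the replication factor Mcm7, had 0 in all WT samples and 1 to 8 in PCC, Mir137 had 0 or 1 and 2 to 5, and Mir331 had 0 to 5 and 6 to 15. Lower counts in PCC were seen for Mir26a (1 to 4 in WT, 0 or 1 in PCC), for Mir196c (9 to 15 and 1 to 10) and for Mir675, which is processed from the imprinted RNA H19 (2 to 30 in WT, 0 to 4 in HYP and 0 to 4 in PCC). Mirlet7i had 0 or 1 counts in HYP and 1 to 16 in PCC.

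Among miRNA genes with a Mir name, 6 of 13 tested rose and 4 fell in PCC vs. WT, and 4 of 6 rose and 1 fell in HYP vs. WT. Among those with a clone name, for which no mature sequence was matched, 5 of 16 rose and 8 fell in PCC vs. WT, and 2 of 14 rose and 9 fell in HYP vs. WT, and the difference between the name classes was not tested. Over all genes, 47.2% rose and 37.8% fell in PCC vs. WT, and 39% rose and 32.6% fell in HYP vs. WT. The largest fall of a member was that of AABR07007690.2 (chr2:24178708-24178820), within Ap3b1, an adaptor protein gene of vesicle transport. Counts were 111, 194, 107, 131 and 22 in WT, 3, 14, 80, 29 and 25 in HYP and 1, 0, 0, 0 and 4 in PCC. PCC lay below both other groups after scaling to depth (PCC replicate 5 just below HYP replicate 1), and HYP overlapped with WT. The log2 fold change in PCC vs. WT was -6.92 ± 0.83 (edgeR adjusted p = 0.000233), against -1.92 for Ap3b1.

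AABR07029204.1, in the splicing factor gene Srrm2, had the highest counts of all members. They were 7450, 7781, 4164, 4211 and 3738 in WT, 3972, 1789, 2517, 2796 and 2474 in HYP and 2116, 2991, 2623, 2945 and 3148 in PCC. It fell in PCC vs. WT (log2 fold change -1.26 ± 0.22, edgeR adjusted p = 0.00134) and in HYP vs. WT (-0.97 ± 0.25, edgeR adjusted p = 0.0216), and the second call was lost without WT replicate 1. Srrm2 itself changed by -0.94 and -0.48.

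Further large falls among the clone-named genes in PCC vs. WT were those of AABR07002680.1 in Ceacam16 (log2 fold change -2.89 ± 0.68, edgeR adjusted p = 0.00725), AC106225.1 (-2.85 ± 0.59, edgeR adjusted p = 0.00362) and AC096473.1 in Gga1 (-2.47 ± 0.41, edgeR adjusted p = 0.00114). AC096473.1 did not overlap between any pair of groups, and AC106225.1 also fell in PCC vs. HYP (-1.88 ± 0.49, edgeR adjusted p = 0.0385, lost in 8 of 10 fits without 1 library). The largest rises were those of AABR07062920.1 (2.77 ± 0.48, edgeR adjusted p = 0.00135) and AABR07072897.1 in the lipid kinase gene Dgkz (2.47 ± 0.39, edgeR adjusted p = 0.000927). Both also rose in HYP vs. WT, by 1.77 ± 0.41 (edgeR adjusted p = 0.013) and 1.94 ± 0.32 (edgeR adjusted p = 0.00249). AC123095.2 fell in both, by -1.44 ± 0.29 (edgeR adjusted p = 0.00344) and -1.32 ± 0.30 (edgeR adjusted p = 0.0108), and AC122625.1 in Smoc1 fell in HYP vs. WT by -1.55 ± 0.42 (edgeR adjusted p = 0.0257, lost in 5 of 10 fits without 1 library).

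The largest snoRNA differences from WT were carried by high counts in WT replicates 1 and 2. SNORA31, a box H/ACA snoRNA in Tpt1, had 1326 and 1272 counts in these libraries and 73, 77 and 135 in WT replicates 3 to 5, with 81, 68, 41, 40 and 39 in HYP and 33, 41, 21, 28 and 112 in PCC. Apart from WT replicates 1 and 2, the 3 groups overlapped. The log2 fold change was -3.84 ± 0.91 in PCC vs. WT (edgeR adjusted p = 0.00731) and -3.28 ± 0.79 in HYP vs. WT (edgeR adjusted p = 0.0152). Without these 2 WT libraries, an alternative chosen after seeing the data, it was -1.47 (edgeR adjusted p = 0.0795) and -1.01 (edgeR adjusted p = 0.141).

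SNORD102, a box C/D snoRNA on chromosome 12, showed the same pattern with 503, 599, 22, 35 and 12 counts in WT, 24, 24, 12, 13 and 16 in HYP and 20, 12, 9, 21 and 36 in PCC. Its log2 fold change moved from -3.78 ± 1.02 (edgeR adjusted p = 0.0151) to -0.65 (edgeR adjusted p = 0.658) in PCC vs. WT when the 2 libraries were left out, and from -3.57 ± 0.95 (edgeR adjusted p = 0.0239) to -0.50 (edgeR adjusted p = 1) in HYP vs. WT. SNORA53 in Slc25a3 had 255 and 182 counts in the 2 libraries, against 13 to 32 in the other WT samples, 10 to 17 in HYP and 10 to 34 in PCC. The chromosome 14 copy of SNORA9 (ENSRNOG00000056382) had 248 and 190, against 2 to 23, 7 to 24 and 5 to 22. Their log2 fold changes in PCC vs. WT were -2.81 ± 0.76 (edgeR adjusted p = 0.0148) and -3.22 ± 0.95 (edgeR adjusted p = 0.0225), and without the 2 libraries -0.89 (edgeR adjusted p = 0.299) and -0.79 (edgeR adjusted p = 0.747).

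Summed over the 36 snoRNA genes with values in all samples, the level was 203 and 201 CPM in WT replicates 1 and 2, 64.3, 77.6 and 69.9 in WT replicates 3 to 5, 35.5 to 60.7 in HYP and 31.0 to 42.0 in PCC. The sums of the other groups thus did not reach any WT sample, with or without the first 2 WT libraries. However, these 36 genes had all been called by the authors in at least 2 comparisons of the same samples. Their separation from WT is therefore not independent of how they were chosen. The same 2 libraries were highest for the 3 scaRNA genes (20.8 and 28.7 CPM, against 3.49 to 11.02 in the other WT samples), the 4 rRNA genes (20.4 and 24.0, against 1.64 to 9.14) and the 4 snRNA genes (5.82 and 6.85, against 0.853 to 1.31). Over the 35 miRNA genes they had 456 and 494, against 306 to 372. Among members tested in PCC vs. WT, both libraries exceeded all other WT samples in 24 of 84 (28.6%, against 26.1% of all genes), and by over 2 times in 7 (8.33%, against 1.34%). In HYP vs. WT these were 21 of 51 (41.2%, against 30.4% of all genes) and 8 (15.7%, against 1.97%). The host genes did not share it in full: the mean of WT replicates 1 and 2 over that of replicates 3 to 5 was 10.5 for SNORA31 and 1.42 for Tpt1, and 7.29 for SNORA53 and 1.06 for Slc25a3.

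**Figure D3:**
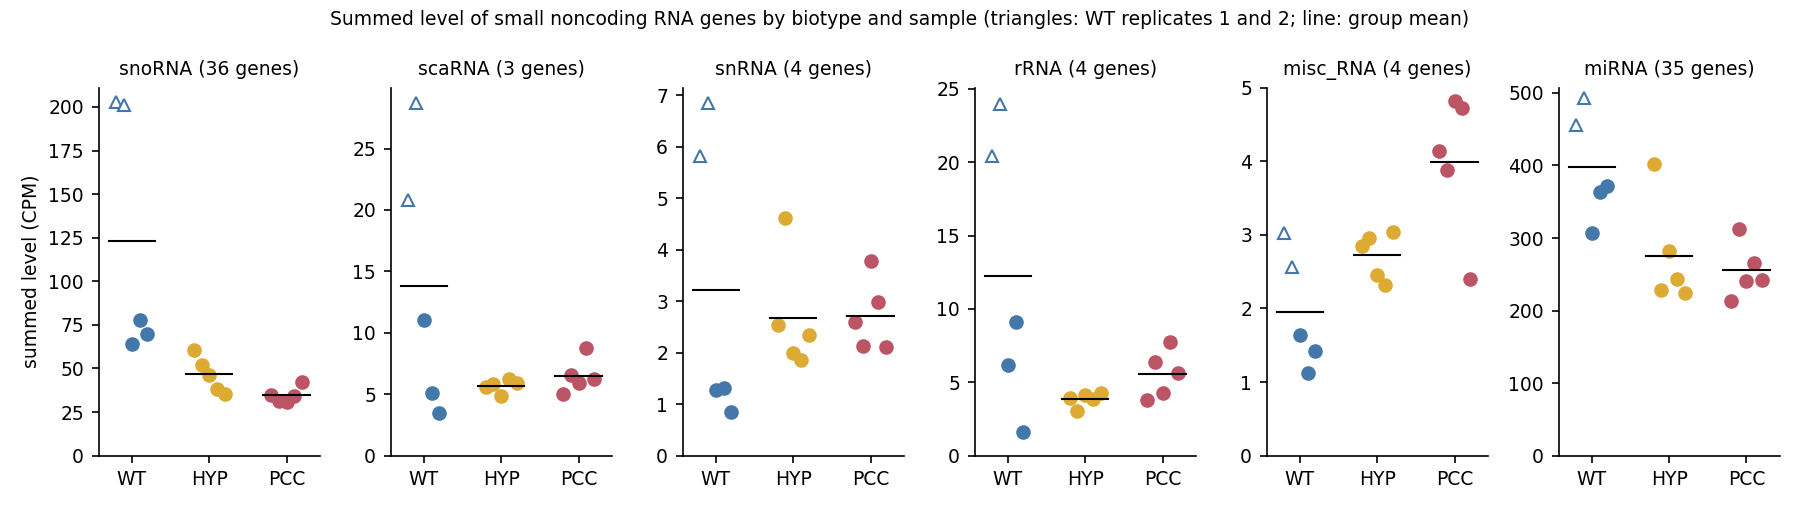
Summed CPM of the genes of each biotype with values in all 15 samples, 1 point per sample by group, with a line at the group mean and triangles for WT replicates 1 and 2. These libraries stand apart for snoRNA (203 and 201 CPM, against 64.3 to 77.6 in the other WT samples), scaRNA, rRNA and snRNA genes.

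Leaving out WT replicates 1 and 2, 97 members were tested in PCC vs. WT, of which 23 rose and 22 fell (46.4% called, against 66.3% of all genes). Of the 43 members that fell in the full comparison, 20 kept the call, and of the 21 that rose, 15 did. In HYP vs. WT, 8 of 57 rose and 9 fell (29.8%, against 53.3% of all genes), with 6 of 28 lower and 6 of 10 higher calls kept. Over all genes, 3303 rose and 2644 fell in the full PCC vs. WT comparison, and 2736 and 2029 without the 2 libraries. In HYP vs. WT these were 1603 and 1339, then 1381 and 852. How many of these calls were kept was not counted over all genes. For snoRNA genes, 10 of 27 and 1 of 14 lower calls were kept, and 0 members turned sign. Among the miRNA genes above, those of Mir22 (edgeR adjusted p = 0.0529), Mir3064 (0.133), Mir3561 (0.108) and AABR07030590.1 (0.0604) in PCC vs. WT and of Mir3064 (0.242), AABR07029204.1 (0.135), AABR07062920.1 (0.0562) and AC122625.1 (0.0518) in HYP vs. WT missed the threshold there.

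**Figure D4:**
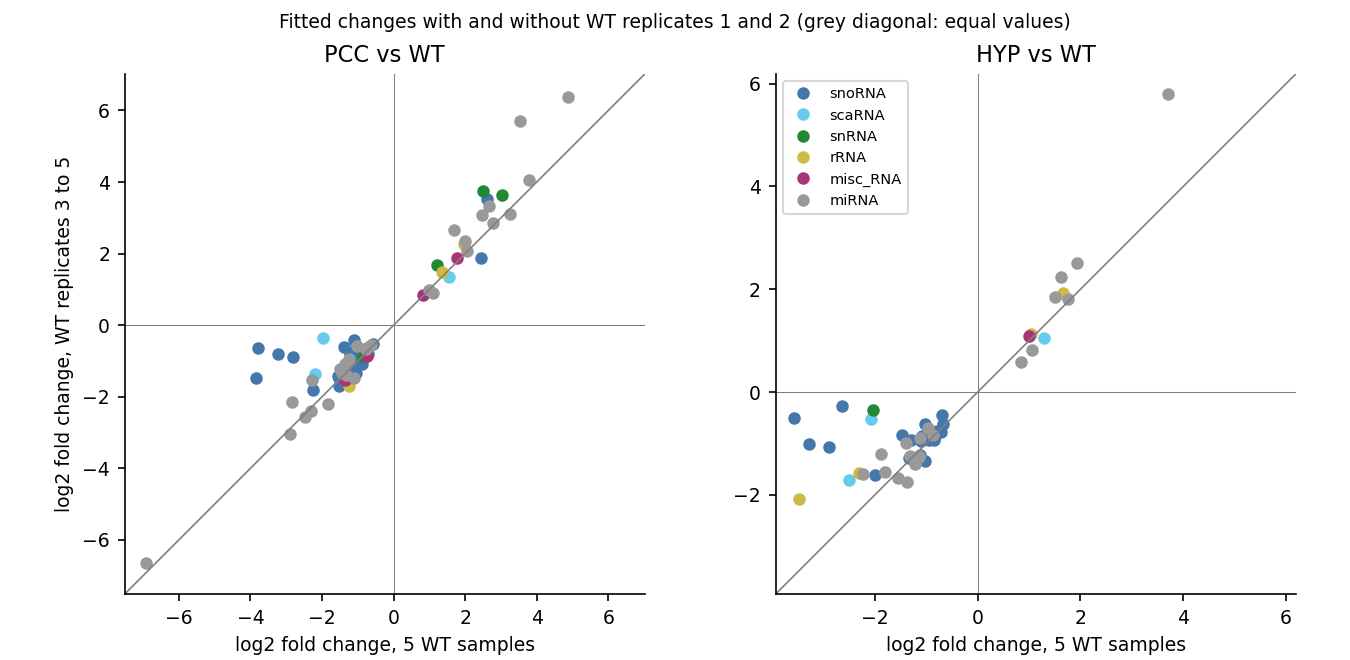
Log2 fold change of each member with all samples (horizontal axis) and without WT replicates 1 and 2 (vertical axis), for PCC vs. WT and HYP vs. WT. Members that change sign would lie in the upper left or lower right panel area, which hold 0 of them, and the snoRNA genes with the largest falls move toward 0.

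SNORA19, SNORA48, SNORA28 and SNORD58 fell in PCC vs. WT with and without these libraries. SNORA19 (ENSRNOG00000061657), in the translation initiation gene Eif3a, had 66, 61, 44, 35 and 11 counts in WT, 17, 13, 11, 5 and 5 in HYP and 12, 7, 11, 16 and 8 in PCC. PCC and WT did not overlap after scaling to depth, and WT replicate 5 lay within the HYP range. SNORA19 fell by a log2 fold change of -2.25 ± 0.43 in PCC vs. WT (edgeR adjusted p = 0.00242, and 0.0225 without WT replicates 1 and 2) and -2.0 ± 0.45 in HYP vs. WT (edgeR adjusted p = 0.0105, and 0.0609 without the 2 libraries). SNORA48 (ENSRNOG00000060816), in Eif4a1, fell by -1.56 ± 0.28 in PCC vs. WT (edgeR adjusted p = 0.00158, and 0.0126 without the 2 libraries), with 56 to 135 counts in WT and 23 to 51 in PCC, and by -0.95 ± 0.29 in HYP vs. WT (edgeR adjusted p = 0.044, lost in 7 of 10 fits without 1 library and, with edgeR adjusted p = 0.17, without the 2 libraries).

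SNORA28, in Eif5, had 149, 146, 148, 196 and 114 counts in WT and 113, 62, 86, 47 and 84 in PCC, which did not overlap after scaling to depth. It fell by -1.27 ± 0.27 (edgeR adjusted p = 0.00448, and 0.0145 without WT replicates 1 and 2). Of the box C/D genes, the copies of SNORD14 on chromosome 8 fell by -1.39 ± 0.34 (ENSRNOG00000061656, edgeR adjusted p = 0.00843) and -1.27 ± 0.33 (ENSRNOG00000060267, edgeR adjusted p = 0.0115) in PCC vs. WT, and both missed the threshold without WT replicates 1 and 2 (edgeR adjusted p = 0.0666 and 0.0529). ENSRNOG00000061656 was the only snoRNA gene that fell in PCC vs. HYP, with 46, 65, 63, 27 and 51 counts in HYP and 13, 14, 21, 25 and 34 in PCC (-1.71 ± 0.35, edgeR adjusted p = 0.0177). SNORD58 (ENSRNOG00000058148) fell by -1.19 ± 0.27 in PCC vs. WT (edgeR adjusted p = 0.0063, and 0.0417 without the 2 libraries).

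Smaller falls were seen for SNORA73 (ENSRNOG00000061662, -1.02 ± 0.28 in PCC vs. WT, edgeR adjusted p = 0.017), SNORD49 (ENSRNOG00000058899, -0.89 ± 0.29, edgeR adjusted p = 0.0347), SNORA42 (ENSRNOG00000056978, -0.80 ± 0.28, edgeR adjusted p = 0.0481) and SNORA66 (ENSRNOG00000061409, -1.09 ± 0.26 in HYP vs. WT, edgeR adjusted p = 0.014). With library totals these 4 values missed the threshold (edgeR adjusted p = 0.0676 to 0.297), without WT replicates 1 and 2 those of SNORA73, SNORA42 and SNORA66 did (0.09 to 0.133), and that of SNORA42 was lost in 9 of 10 fits without 1 library. SNORA40 (ENSRNOG00000055387, -1.29 ± 0.46 in PCC vs. WT, edgeR adjusted p = 0.0518, DESeq2 adjusted p = 0.0246) and the chromosome 1 copy of SNORA9 (ENSRNOG00000056770, -0.69 ± 0.26 in HYP vs. WT, edgeR adjusted p = 0.108) missed the threshold. SNORA26 (ENSRNOG00000053670) had 9 to 23 counts in WT and 0 to 9 in PCC, and SNORA70 (ENSRNOG00000058395) had 34, 53, 6, 5 and 0 in WT, 0 to 3 in HYP and 0 to 2 in PCC, both untested. By family, 11 of 17 tested genes with a SNORD name and 14 of 21 with a SNORA name fell in PCC vs. WT, and 5 of 8 and 9 of 14 in HYP vs. WT. Over all genes, 37.8% fell in PCC vs. WT and 32.6% in HYP vs. WT.

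The 2 snoRNA genes that rose in PCC vs. WT were both box H/ACA genes. SNORA71, in the snoRNA host gene Snhg11, had 3, 0, 2, 5 and 10 counts in WT, 12, 4, 2, 3 and 3 in HYP and 12, 30, 34, 45 and 20 in PCC. PCC replicate 1 lay within the ranges of WT and HYP. The log2 fold change was 2.44 ± 0.69 in PCC vs. WT (edgeR adjusted p = 0.0181, and 0.0732 without WT replicates 1 and 2) and 2.04 ± 0.54 in PCC vs. HYP (edgeR adjusted p = 0.0411, lost in 7 of 10 fits without 1 library). Snhg11 changed by 1.89 and 2.27. SNORA17 (ENSRNOG00000058459, chromosome 18) had 7, 8, 4, 2 and 0 counts in WT, 7, 9, 4, 4 and 10 in HYP and 28, 15, 22, 73 and 17 in PCC, with no overlap between PCC and either group. It rose by 2.61 ± 0.67 in PCC vs. WT (edgeR adjusted p = 0.0115).

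The scaRNA genes split in direction. The SCARNA6 copies on chromosome 9, which guide the modification of spliceosomal RNA, lie in the autophagy gene Atg16l1, which changed by -1.81 in PCC vs. WT and -2.12 in HYP vs. WT. ENSRNOG00000053606 had 319, 392, 95, 37 and 24 counts in WT, 46, 47, 22, 30 and 46 in HYP and 40, 41, 39, 82 and 54 in PCC. It fell by -1.96 ± 0.66 in PCC vs. WT (edgeR adjusted p = 0.0398) and -2.08 ± 0.61 in HYP vs. WT (edgeR adjusted p = 0.037), and without WT replicates 1 and 2 the values were -0.35 (edgeR adjusted p = 1) and -0.52 (edgeR adjusted p = 0.863). Here the host had the same pattern, with a mean in WT replicates 1 and 2 of 4.82 times that in replicates 3 to 5. ENSRNOG00000054529 fell in HYP vs. WT by -2.51 ± 0.53 (edgeR adjusted p = 0.00813) and, without the 2 libraries, by -1.70 (edgeR adjusted p = 0.0387). In PCC vs. WT it fell by -2.20 ± 0.64 (edgeR adjusted p = 0.0203), a call lost without the 2 libraries (-1.35, edgeR adjusted p = 0.193) and with library totals. SCARNA20, named after its values were seen, had 17, 16, 34, 20 and 11 counts in WT, 35, 42, 46, 62 and 56 in HYP and 61, 85, 53, 74 and 80 in PCC, and rose by 1.56 ± 0.32 (edgeR adjusted p = 0.00367) and 1.29 ± 0.29 (edgeR adjusted p = 0.0109). All HYP and PCC samples lay above all WT samples. Without WT replicates 1 and 2, SCARNA20 kept the call in PCC vs. WT (edgeR adjusted p = 0.0357). In HYP vs. WT it missed the threshold there (edgeR adjusted p = 0.0733).

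Of the 20 snRNA genes, 10 carry the name U6, 4 U1, 4 U4 and 1 each U2 and U11. The U6 copy in Doc2b (ENSRNOG00000054510) had 1, 8, 0, 3 and 2 counts in WT, 7, 19, 10, 12 and 12 in HYP and 29, 20, 48, 39 and 10 in PCC. WT lay below all PCC samples, and the gene rose by 3.04 ± 0.69 in PCC vs. WT (edgeR adjusted p = 0.00618), beside 3.12 for Doc2b, a gene of calcium-triggered secretion. The copy opposite the neurofilament gene Ina (ENSRNOG00000059012) rose by 2.50 ± 0.58 (edgeR adjusted p = 0.00683), beside 2.93 for Ina. The U6 copy with the highest counts in PCC vs. WT (ENSRNOG00000059821), opposite Smarca4, fell by -0.85 ± 0.25 (edgeR adjusted p = 0.021, 0.175 with library totals and 0.0835 without WT replicates 1 and 2), beside -0.81 for Smarca4. Another (ENSRNOG00000055884) had 112, 118, 20, 13 and 10 counts in WT, 7 to 20 in HYP and 3 to 7 in PCC, and its difference in HYP vs. WT missed the threshold (-2.04 ± 0.65, edgeR adjusted p = 0.0516, DESeq2 adjusted p = 0.013). The U1 copy in Slc25a40 (ENSRNOG00000052149) rose by 1.20 ± 0.40 in PCC vs. WT (edgeR adjusted p = 0.0393, 0.0585 with DESeq2, lost in 8 of 10 fits without 1 library), and the U4 copy in Rgs3 (ENSRNOG00000060176), untested, had 0 to 3 counts in WT, 5 to 12 in HYP and 2 to 14 in PCC.

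Named 7SK were 10 genes on 8 chromosomes, and their copies differed in direction. The copy opposite Tstd2 on chromosome 5 (ENSRNOG00000060704) had 27, 23, 20, 16 and 17 counts in WT, 45, 53, 26, 32 and 54 in HYP and 91, 80, 103, 100 and 55 in PCC. All HYP and PCC samples lay above all WT samples after scaling to depth, and it rose by 1.77 ± 0.27 in PCC vs. WT (edgeR adjusted p = 0.000734) and 1.00 ± 0.24 in HYP vs. WT (edgeR adjusted p = 0.0144). A chromosome 18 copy (ENSRNOG00000051406) rose by 0.83 ± 0.25 (edgeR adjusted p = 0.0265) and a chromosome 7 copy (ENSRNOG00000061825) fell by -1.36 ± 0.39 (edgeR adjusted p = 0.0197), both in PCC vs. WT. Without WT replicates 1 and 2, the first call was lost (edgeR adjusted p = 0.106) and the second was kept (edgeR adjusted p = 0.0394). The copy with the highest mean count over the samples with a value, in the kinase gene Clk4 (ENSRNOG00000058789), had 65 to 86 counts in WT and 29 to 83 in PCC (-0.75 ± 0.29, edgeR adjusted p = 0.0762, DESeq2 adjusted p = 0.0123). The other 6 were untested, with a highest count of 44. The remaining misc_RNA genes were a signal recognition particle RNA copy (0 to 6 counts in WT, 10 to 19 in PCC) and pRNA, which had 14, 7, 2, 2 and 0 counts in WT and 0 in all HYP and PCC samples.

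Of the 6 genes named 5S_rRNA, 3 were tested in PCC vs. WT, of which 2 rose and 0 fell, and 2 in HYP vs. WT, of which both rose. Over all genes, 47.2% rose and 37.8% fell in PCC vs. WT, and 39% and 32.6% in HYP vs. WT. The tested 5S_rRNA genes were too few to compare with these shares. ENSRNOG00000044463 had 5, 13, 7, 6 and 2 counts in WT, 28, 15, 16, 17 and 29 in HYP and 20, 47, 28, 32 and 31 in PCC, without overlap against WT, and rose by 1.98 ± 0.43 in PCC vs. WT (edgeR adjusted p = 0.00475) and 1.66 ± 0.38 in HYP vs. WT (edgeR adjusted p = 0.0112). ENSRNOG00000044610 rose by 1.35 ± 0.37 (edgeR adjusted p = 0.0154) and 1.04 ± 0.28 (edgeR adjusted p = 0.0257). Without WT replicates 1 and 2, its first call was kept (edgeR adjusted p = 0.0489) and that in HYP vs. WT was lost (edgeR adjusted p = 0.0678). The copy with the highest counts, in Frmd5 (ENSRNOG00000044512), had 46, 53, 155, 87 and 158 in WT and 66, 30, 92, 15 and 70 in PCC (-1.24 ± 0.53, edgeR adjusted p = 0.104, DESeq2 adjusted p = 0.0302, and edgeR adjusted p = 0.0351 without WT replicates 1 and 2).

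Of the 4 genes named 5_8S_rRNA, the one on an unplaced scaffold (ENSRNOG00000056963) had 345, 386, 79, 99 and 6 counts in WT, 10, 7, 20, 24 and 14 in HYP and 2, 3, 4, 0 and 0 in PCC. PCC lay below both other groups, and WT replicate 5 lay within the HYP range. It fell in HYP vs. WT by -3.47 ± 0.77 (edgeR adjusted p = 0.01), and without WT replicates 1 and 2 the value was -2.08 (edgeR adjusted p = 0.0555). The chromosome 1 copy (ENSRNOG00000051831), close to pRNA, fell in HYP vs. WT by -2.31 ± 0.65 (edgeR adjusted p = 0.0307, and -1.58 with edgeR adjusted p = 0.236 without WT replicates 1 and 2), with 64, 59, 23, 30 and 5 counts in WT, 5, 0, 6, 7 and 17 in HYP and 8, 32, 37, 108 and 69 in PCC, so its HYP samples were mostly low and its PCC samples spread widely. The 2 copies on chromosome 4 were untested, with 2 to 21 counts in WT and 0 to 3 in PCC.

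Many members shared their position with a larger gene, and 74 of 183 lay within the span of another listed gene, 54 on its strand and 22 opposite (some had both). Of the members whose host was also tested, 32 of 32 in PCC vs. WT and 19 of 19 in HYP vs. WT were fitted in the direction of a host, with a median absolute difference of 0.46 and 0.56 log2 units between member and host. On the opposite strand this was 9 of 9 in PCC vs. WT. Member and host were measured in the same libraries and both had been called by the authors. The exception on the same strand, in both comparisons, was AC097745.1, fitted at -1.49 in PCC vs. WT inside Ppip5k1 (0.87), with Serf2 on the other strand at -1.13.

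**Figure D5:**
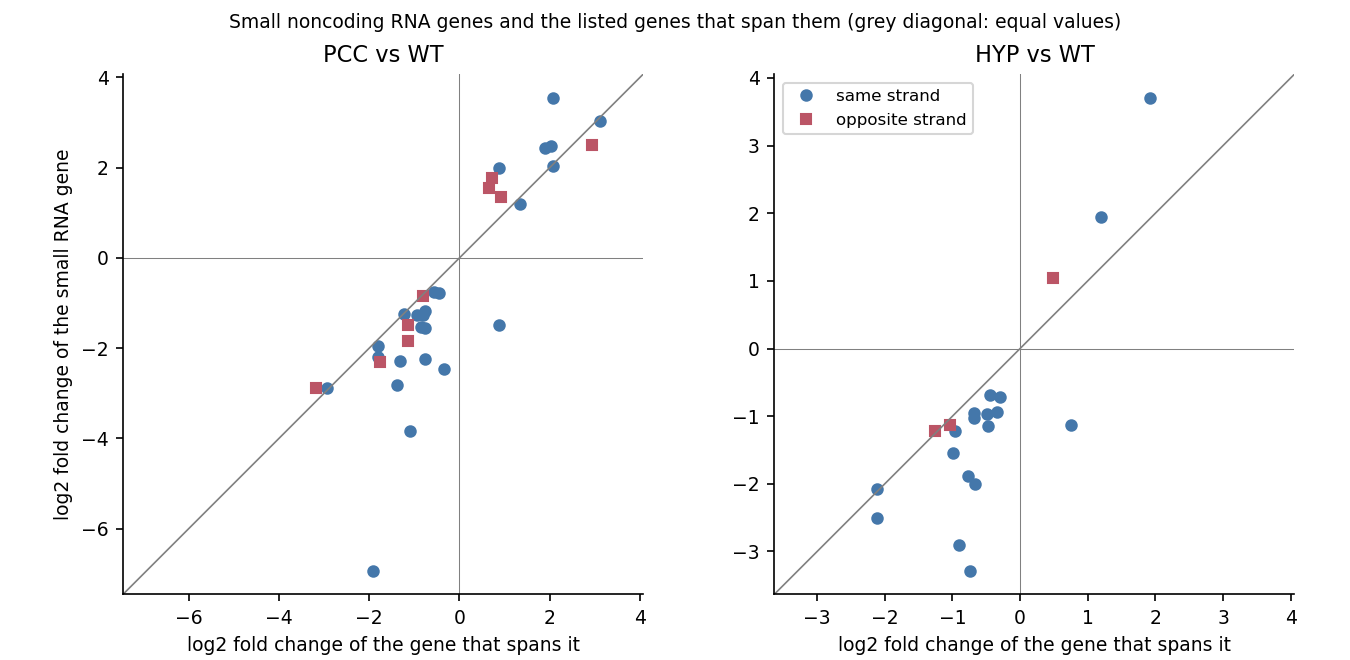
Log2 fold change of each tested member (vertical axis) against that of the listed gene it lies in (horizontal axis), by strand. Left, PCC vs. WT, and right, HYP vs. WT. Most points share the sign of the host, and AC097745.1 against Ppip5k1 is the point with opposite signs in each panel.

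Proteins that make or carry these RNAs were read from lists of pathway genes, which also held snoRNA host genes and replication-dependent histones. The next counts cover all lists together. Host genes tested were 5, 5 and 2 and histones 4, 2 and 3, in the order of comparisons given next. In PCC vs. HYP, 1 host gene rose and 2 histones fell. In PCC vs. WT, 18 of 42 tested genes rose and 19 fell (all genes 47.2% and 37.8%), in HYP vs. WT 3 of 32 rose and 14 fell (all genes 39% and 32.6%), and in PCC vs. HYP 1 of 16 rose and 4 fell (all genes 20.3% and 24.5%). Only genes the authors had called could be tested, so each list was seen in part. In PCC vs. WT, 4 of 15 microRNA processing names and 2 of 6 box C/D names were tested. Of the Sm and LSm names and of the RNA polymerase III names, 5 of 22 each were. All 4 tested microRNA processing genes rose in PCC vs. WT under each scaling tried: Drosha (log2 fold change 1.14 ± 0.23, edgeR adjusted p = 0.00331), the silencing factor Tnrc6c (1.12 ± 0.23, edgeR adjusted p = 0.00351), Prkra (0.90 ± 0.24) and Dgcr8 (0.57 ± 0.15). In HYP vs. WT, Tnrc6c (0.76 ± 0.13) and Drosha (0.43 ± 0.13) rose.

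Both tested box C/D proteins fell in PCC vs. WT, the methyltransferase Fbl by -0.61 ± 0.16 (edgeR adjusted p = 0.0125) and Nhp2l1 by -0.40 ± 0.11, and 0 genes of the box H/ACA list were tested. Of the Sm and LSm proteins, which coat the snRNAs, 4 of 5 fell in PCC vs. WT and 3 of 4 in HYP vs. WT, but 1 and 0 with library totals. Over all genes, 37.8% and 32.6% fell, and with library totals 1592 of 7001 and 577 of 4108. Snapc1, a subunit of the complex that starts snRNA transcription, fell by -1.60 ± 0.21 in PCC vs. WT (edgeR adjusted p = 0.000352), -0.77 ± 0.16 in HYP vs. WT and -0.99 ± 0.22 in PCC vs. HYP, while Snapc4 rose by 0.79 ± 0.19 in PCC vs. WT. Among RNA polymerase III genes, Brf2 (1.12 ± 0.23), Crcp, Gtf3c3 and Polr3f rose in PCC vs. WT and Brf1 fell (-0.85 ± 0.15).

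For 7SK, Hexim1 fell in PCC vs. WT (-0.74 ± 0.15, edgeR adjusted p = 0.00367) and in HYP vs. WT (-0.50 ± 0.13), Hexim2 rose in PCC vs. WT (0.62 ± 0.17), and the kinase Cdk9 of P-TEFb fell in HYP vs. WT (-0.47 ± 0.13). Of 5 tested genes for ribosomal RNA synthesis and processing, 2 fell in PCC vs. WT (Polr1c at -1.12 ± 0.15 and Bop1 at -0.81 ± 0.14) and 2 rose (Taf1b at 0.58 ± 0.20 and Exosc10 at 0.47 ± 0.14), and of 4 in HYP vs. WT, Polr1c (-0.98 ± 0.17) and Bop1 (-0.84 ± 0.17) fell and 0 rose. Among the 3 largest called changes per direction in each comparison, histone messages included Hist1h4b at -2.94 ± 0.44, Hist2h2aa2 at -2.71 ± 0.44 and Hist1h1d at -1.84 ± 0.39 lower and Hist3h2ba at 2.12 ± 0.60 higher in PCC vs. WT, and the other rises were the host genes Snhg11 (1.89 ± 0.23) and Rcc1 (1.17 ± 0.24). Hist1h4b also fell in HYP vs. WT (-1.62 ± 0.23) and Hist3h2ba rose (1.45 ± 0.45), and in PCC vs. HYP Snhg11 rose (2.27 ± 0.26) and Hist2h2aa2 (-2.30 ± 0.52) and Hist1h1d (-1.72 ± 0.43) fell. Of the 33 replication-dependent histone names, 4 were tested in PCC vs. WT. Since RNA was poly(A)-selected, these values mainly cover histone transcripts with a poly(A) tail and are not a level of all histone messages.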

How the data were processed

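RNA-seq tables of 15 rat samples were used. Per the labels, RNA was poly(A)-selected and prepared with NEBNext Ultra. The submitters' processing notes name HISAT2 2.0.5 and featureCounts 1.5.0-p3, and the methods name Rn06. The authors deposited, for each pair of groups, the genes they had called, with read counts, signal (counts divided by size factors) and FPKM per sample, beside their log2 fold changes and p-values. These p-values served only to recover how many genes had entered the authors' tests (18790, 18057 and 17454). Their other comparison values were not used. Groups came from titles and descriptions. TMM factors were computed over the genes in each table, which were filtered by filterByExpr and tested per pair with edgeR 4.0.16 (glmQLFit, glmQLFTest, R 4.3.3, limma 3.58.1). Benjamini-Hochberg adjustment ran over the number of genes tested upstream, with a threshold of 0.05. CPM used library totals recovered from counts, FPKM and gene length, with TMM. Figures and tables used Python 3.11.15 with pandas 2.3.3, numpy 2.4.6 and matplotlib 3.10.9. Scripts were tested on simulated data. Library totals were 17723131 to 20972536 reads in WT, 16315018 to 18839462 in HYP and 17340695 to 23831269 in PCC, and precision is limited by counting for genes of few reads.

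The members and lists were chosen with earlier results of these data known. Genes named were those in all 3 tables, the highest-count gene of each repeated name, the 5 largest called changes per direction and 5 highest counts per comparison, miRNA genes with a mature sequence, and the 3 largest called pathway changes per direction. SCARNA20, pRNA and other single copies or pathway genes outside this rule were chosen after their values were seen. Coordinates are Rn06 as deposited, and sequences and miRNA hosts are RefSeq GRCr8, matched by name. Alternatives were DESeq2 1.42.0, other scalings, filters and adjustments, a 2-fold minimum, a replicate block and leaving out each sample.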

Additional observations from a re-analysis of the deposited data

Results flagged for a closer look

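Among 181 groups of 5 samples in which a member's level was examined, 24 held a sample whose gap to the others was above Dixon's critical value. For normally distributed values, chance gives about 1 in 20 groups. These levels were not transformed, and where the other samples of a group stood at 0, 1 count was enough. The 24 are therefore not compared with that rate. In the following, values are levels in CPM.

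Single WT samples stood apart for AABR07030590.1 (replicate 5 at 103, the others at 54.0 to 67.5), Mir3064 (replicate 5 at 66.5, the others at 23.4 to 31.7), SNORA28 (replicate 4 at 12.3, the others at 7.17 to 8.11), the SNORA42 gene ENSRNOG00000056978 (replicate 4 at 6.39, the others at 3.59 to 4.38) and Mir218-2 (replicate 1 at 0.385). In HYP, Mir23b was high in replicate 5 (0.998, the others 0.258 to 0.317), SNORA71 was high in replicate 1 (0.761, the others 0.129 to 0.220), and Mir27b was low in replicate 2 (0.220, the others 0.755 to 0.848).

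In PCC, replicate 5 was high for SNORA31 (4.81, the others 0.982 to 1.99), SNORA53 (1.46, the others 0.473 to 0.728), the SNORD14 gene ENSRNOG00000060267 (4.42, the others 1.78 to 2.14) and Mirlet7i (0.687). Replicate 4 was high for the SNORA17 gene ENSRNOG00000058459 (3.45, the others 0.728 to 1.28), the SCARNA6 gene ENSRNOG00000053606 (3.88, the others 1.82 to 2.32) and Mir370 (0.899, the others 0.194 to 0.374). Replicate 2 was high for Mir218-2 (2.72, the others 0.945 to 1.12) and low for the SNORA42 gene (1.505, the others 2.71 to 3.12), and Mir3561 was low in replicate 3 (0.234, the others 0.344 to 0.388).

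The remaining 6 rest on 1 to 4 counts in a group otherwise at or near 0: Mir137 in WT replicate 2 (0.0504), Mir344i in WT replicate 3 (0.0528), Mirlet7i in HYP replicate 4 (0.0581), Mir26a in PCC replicate 3 (0.0468), Mir675 in PCC replicate 4 (0.189) and AABR07007690.2 in PCC replicate 5 (0.172).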

How the results depend on the processing

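Calls of members depended on scaling and filter. Calls over all genes moved with the scaling too, as given above. In PCC vs. WT, scaling to the listed total gave 37 called members (15 lower), 22 were lower with library totals, 128 (41 higher, 87 lower) were called with no filter, and 22 were lower without WT replicates 1 and 2. In HYP vs. WT, 16 (5 lower) were called with the listed total, 21 (10 lower) with library totals, 67 (19 higher, 48 lower) with no filter and 17 (9 lower) without WT replicates 1 and 2. In PCC vs. HYP, 13 (7 higher, 6 lower) were called with DESeq2, 1 was lower with the authors' size factors and with the listed total, 7 rose and 1 fell with library totals, 14 (10 lower) were called with no filter and 18 (12 higher, 6 lower) with adjustment over the listed genes only.

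Same-numbered samples were weakly correlated at most, with values from -0.24 to 0.26. Replicate 2 correlated best with its own number in each comparison (0.18, 0.26 and 0.25). So did replicate 5 in PCC vs. WT and replicate 1 in HYP vs. WT, and the other pairs did not. A partial pairing was not tested. With the replicate block, 41 members (23 lower) were called in PCC vs. WT, 18 (6 higher, 12 lower) in HYP vs. WT and 0 in PCC vs. HYP, where 0 were higher and 0 lower, and of the pathway genes 11 (1 higher) in HYP vs. WT and 1 (0 lower) in PCC vs. HYP. Over all genes, the block left 2761 higher and 2269 lower in PCC vs. WT and 1303 and 969 in HYP vs. WT. In PCC vs. HYP it left 187 and 166.

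Of the pathway genes in PCC vs. WT, 6 were lower with the listed total and 11 with library totals, 24 (11 higher) were called without WT replicates 1 and 2 and 14 (7 higher, 7 lower) changed at least 2-fold. In HYP vs. WT, 26 (8 higher) were called with DESeq2, 11 (9 higher, 2 lower) with the listed total, 8 higher and 4 lower with library totals, 31 (9 higher, 22 lower) over the listed genes only, and 2 (1 higher, 1 lower) changed at least 2-fold. In PCC vs. HYP, 2 were higher with the authors' size factors, with no filter and with a mean of at least 10 counts, 3 were higher and 2 lower with the listed total, 4 were higher with library totals, 12 (6 higher) were called over the listed genes only and 3 (2 lower) changed at least 2-fold.

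Leaving out each sample in turn gave 56 to 77 called members in PCC vs. WT (19 to 26 higher, 31 to 51 lower), 20 to 51 in HYP vs. WT (8 to 14, 12 to 37) and 1 to 12 in PCC vs. HYP (1 to 6, 0 to 6). For pathway genes it gave 29 to 35 (13 to 18, 15 to 18), 9 to 22 (1 to 7, 8 to 15) and 1 to 9 (1 to 3, 0 to 6). Calls over all genes moved too, as given above for several of these fits.

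For single named genes, 681 of 774 values under other settings kept direction and side of the threshold in PCC vs. WT, 449 of 558 in HYP vs. WT and 195 of 252 in PCC vs. HYP, and 0 reversed. Without WT replicates 1 and 2, 26 of 43 did in PCC vs. WT and 18 of 31 in HYP vs. WT. Of 69 called values of named members, 43 held in every fit without 1 sample. Library totals moved the median of all genes by 0.28, 0.19 and 0.25 log2 units and the listed total by 0.49, 0.47 and 0.18. Low counts limit the 68, 25 and 12 listed members with a mean under 10. The causes of these changes were not tested.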
